A study of Homo sapiens with 9 samples.

Results

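Ribosome biogenesis and nucleolar factors were followed through RNA-seq of MDA-MB-453, a human triple-negative breast cancer cell line. The set was a list of 50 gene symbols, and all 50 were found among the 59452 genes of the count table. The list was chosen with earlier results of these data known. It held 19 factors of the small ribosomal subunit, 15 of the large subunit, 6 of RNA polymerase I, 7 of the small nucleolar RNA (snoRNA) particles and 3 general nucleolar proteins. The 9 libraries covered 3 conditions of 3 libraries each, all taken after 48 hours in the same serum-containing medium. Attached cells with vehicle (DMSO) and cells in forced suspension with vehicle were compared for the effect of losing attachment. The drug, AT-0174, blocks the tryptophan-degrading enzymes TDO2 and IDO1, and suspended cells given 10 µmol/L of it were compared with suspended vehicle cells. Forced suspension was on plates coated with poly-HEMA, which keeps cells from attaching. All samples came from this single parental line with no genetic change, AT-0174 was not given to attached cells, and the study describes the replicates as biological triplicates.

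Ribosomes are built in the nucleolus around a long precursor RNA that RNA polymerase I transcribes. snoRNA particles modify this RNA, and the small subunit processome and the pre-60S factors fold and cut it into the RNAs of the small and the large subunit. Demand for ribosomes follows growth, and in cancer cells many of these genes are known targets of MYC, which binds the E-box.

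Each library held between 36649997 and 48019126 estimated counts, and the least covered value of any member was 752 counts, for *GAR1*. Levels are given as CPM, which is the count scaled to a fixed library size after TMM normalization, or as TPM, which also accounts for transcript length, where genes are compared with each other. Both are shares of a library, so more RNA of a gene per cell cannot be told apart from less RNA of other genes. The epithelial and luminal markers of the line were present, with *EPCAM* at 293 to 363 TPM, *KRT8* at 779 to 877 TPM and *GATA3* at 903 to 1077 TPM over the 9 libraries. Of 7 markers of other cell types only 2, *COL1A1* (51.5 to 66.0 TPM) and *CD68* (1.27 to 4.63 TPM), passed the filter on low counts, and *CD3E* was at 0 in every library. Attached replicate 3 stood apart from its group. The chi-square of its counts, divided by the number of genes, was 11.2 and 12.1 against the other attached libraries, which differed from each other by 3.06. AT-0174 replicate 1 differed by 17.4 and 9.44 from the other libraries of its group, against 6.85 between those.

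The members were well expressed. Their median level in attached cells was 48.7 TPM, against 12.6 TPM over all 15528 genes tested, and 49 of 50 lay above that median. The general nucleolar proteins and the snoRNA particles led, with group medians of 676 and 217 TPM, and the large subunit, small subunit and RNA polymerase I groups followed at 53.7, 33.2 and 30.2 TPM. *NPM1*, the nucleolar chaperone nucleophosmin, was the highest at 1063 ± 71.5 TPM (SD, n = 3), above *NCL*, or nucleolin, at 676 ± 35.4 TPM. *DKC1*, the pseudouridine synthase of the H/ACA particles, came next at 577 ± 24.6 TPM, and neither of these steps overlapped between libraries. The lowest member was *UTP20*, a very long scaffold protein of the small subunit processome, at 6.75 ± 0.0699 TPM.

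**Figure D1:**
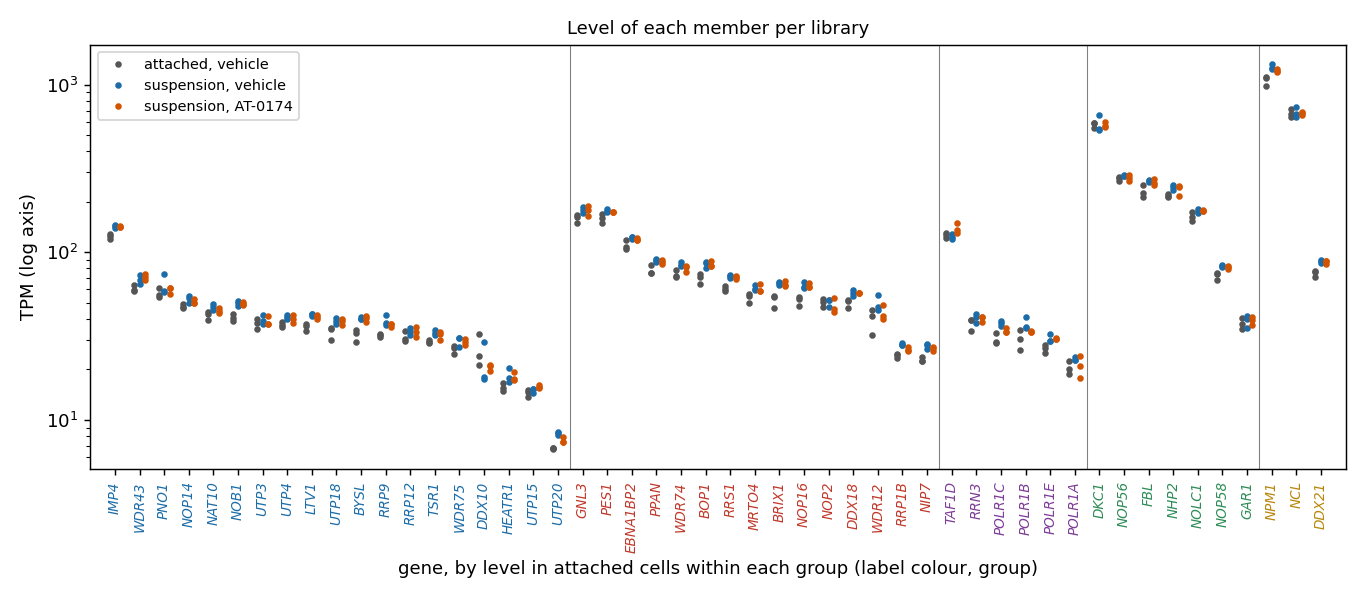
TPM (vertical log axis) of each of the 50 members in each library, 1 point per library, ordered within each group by the level in attached cells and coloured by condition. *NPM1* (1063 TPM on average in attached cells) and *UTP20* (6.75 TPM) mark the ends, and the distance between genes is far larger than that between conditions.

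Within the groups, many neighbours in this order did not differ beyond their spread. *IMP4*, a protein of the U3 snoRNA particle, stood alone at the top of the small subunit factors with 124 ± 3.95 TPM. From *NAT10* (41.9 TPM) down to *TSR1* (29.2 TPM), the range of each small subunit factor overlapped that of the next. *GNL3*, the GTPase nucleostemin, and *PES1*, a member of the PeBoW complex of the large subunit, shared the top of their group at 159 ± 9.14 and 159 ± 9.83 TPM. *TAF1D*, a subunit of the SL1 factor that brings RNA polymerase I to its promoter, stood above the rest of its group at 126 ± 4.24 TPM. The catalytic subunit *POLR1A* was the lowest there at 20.4 ± 1.85 TPM.

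In forced suspension part of the 50 members rose by a small amount and none was called lower. The count was 22 of 50 higher and 0 lower in suspended against attached cells (edgeR's quasi-likelihood test, Benjamini-Hochberg adjusted p under 0.05 over all genes tested). Across all genes tested 10.4% rose and 10.8% fell. Genes are called more often where counts are high. Among the 7635 genes with a mean CPM at least that of the lowest member 18.0% rose, against 44% of the members. As the members were chosen with earlier results of these data known, this gap is a description and not a test. The rises were between 0.091 and 0.26 on the log2 scale, or 1.06-fold to 1.2-fold. The median log2 fold change of the members was 0.10, against -0.00025 over all genes tested, and 43 of 50 were above 0. In 26 members every suspended vehicle library lay above every attached library, against 19.4% of all genes tested.

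The count of calls depended on single libraries. Without attached replicate 3 only 9 members were called, without suspended vehicle replicate 2 it was 10, and without attached replicate 1 it was 13. Calls over all genes fell in the same fits, from 1620 genes higher in suspension to 925, 922 and 1278. Attached replicate 3 was the lowest of the attached libraries in 34 of the 50 members. Each of the 22 stayed above 0 in every alternative run, and 8 were called with any 1 library left out: *BOP1*, *BRIX1*, *DDX21*, *NOB1*, *POLR1B*, *POLR1C*, *UTP20* and *WDR43*. With counts rebuilt from TPM, which removes differences in transcript length between libraries, 6 members were called, 5 of them among the 22, and 808 genes in all were called higher. With library totals in place of TMM scaling 30 members were called, all higher, while over all genes the split moved from 1620 higher and 1677 lower to 2769 and 1234.

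**Figure D2:**
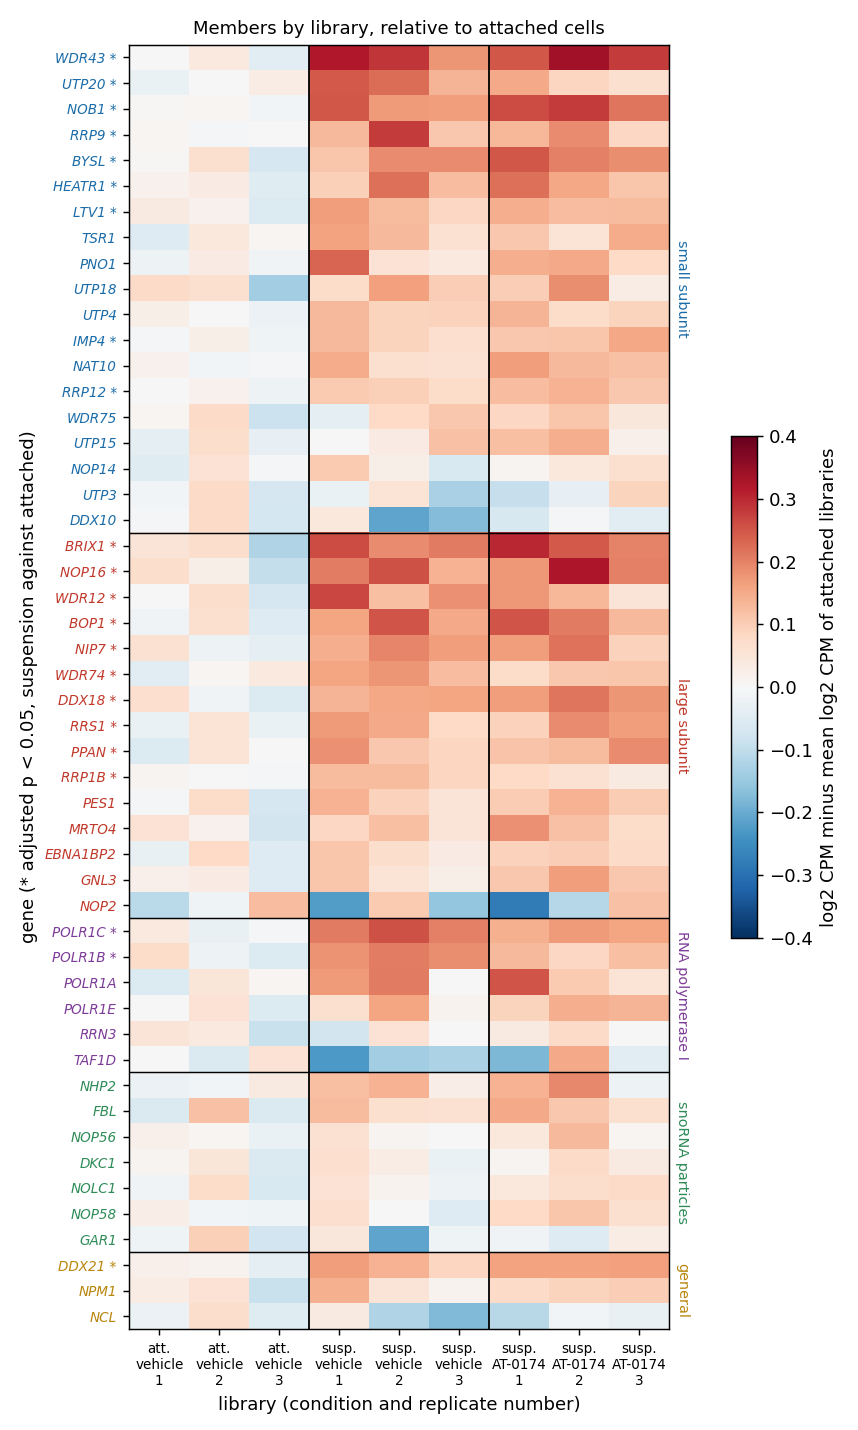
Log2 CPM of each member in each of the 9 libraries minus its mean log2 CPM over the 3 attached libraries (colour scale, red higher), with members in rows by group and libraries in columns. An asterisk marks the 22 members with an adjusted p under 0.05 in suspension against attached cells, and they lie in the small subunit (9), large subunit (10), RNA polymerase I (2) and general nucleolar (1) blocks.

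Among the small subunit factors 9 of 19 rose, with a group median of 0.11. The processome, the particle that forms on the new transcript, and the late cytoplasmic steps were both represented. *WDR43*, a processome protein that binds early to the precursor RNA (chromosome 2, 28894667 to 28948219, plus strand, GRCh38), changed the most. It was at 75.2, 77.2 and 73.1 CPM in attached libraries and at 93.9, 91.7 and 84.9 CPM in suspension. The groups were well apart, with a log2 fold change of 0.26 ± 0.043 (SE) and an adjusted p of 0.0017. With counts rebuilt from TPM, however, its change was 0.084 and was not called (adjusted p = 0.37).

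*NOB1*, the nuclease that cuts the 3′ end of 18S rRNA in late precursors (chromosome 16, 69741871 to 69754926, minus strand), had 41.5, 41.6 and 41.0 CPM attached and 49.1, 46.5 and 46.4 CPM in suspension. All of its suspended libraries lay above a very narrow attached range, and it rose by 0.20 ± 0.039 on the log2 scale (adjusted p = 0.0047). *UTP20* (chromosome 12, 101280105 to 101386618, plus strand) had 42.3, 43.1 and 44 CPM against 51.1, 50.3 and 47.4 CPM, a change of 0.20 ± 0.042 (adjusted p = 0.0061). *RRP9*, a protein of the U3 snoRNA particle, was at 32.2, 32 and 32 CPM attached and at 35.1, 39.0 and 34.6 CPM in suspension. Replicate 2 of the suspended group was the high one, and the change of 0.18 ± 0.051 (adjusted p = 0.028) fell to 0.12 without it, with an adjusted p of 0.11. *BYSL*, or bystin, which matures pre-40S particles, had 28.5, 29.7 and 27.1 CPM against 30.6, 32.3 and 32.4 CPM (0.16 ± 0.046, adjusted p = 0.025).

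The other risen small subunit factors were *HEATR1*, *LTV1*, *IMP4* and *RRP12*, with changes between 0.091 and 0.15. *IMP4* (adjusted p = 0.049) and *RRP12* (0.05 after rounding) lay at the threshold and were called in only 4 of 17 fits each, the reported one included. *LTV1* was called in 9 of the 17 and *HEATR1* in 13. With counts rebuilt from TPM, *RRP12* was at 0.015 (adjusted p = 0.90). Another 3 factors had changes of 0.092 to 0.12, no overlap between groups and adjusted p-values just above the threshold: *TSR1* (0.056), *UTP4* (0.057) and the 18S rRNA acetyltransferase *NAT10* (0.069). The lowest changes were those of *DDX10*, a helicase, at -0.11 ± 0.062 and *UTP3* at -0.032 ± 0.059, neither called.

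The large subunit factors held the highest share of calls, 10 of 15, with a group median of 0.13. *BRIX1*, a pre-60S assembly factor (chromosome 5, 34915677 to 34925996, plus strand), had 54.2, 54.9 and 48.1 CPM in attached libraries and 62.7, 59.6 and 60.4 CPM in suspension. Its change was 0.22 ± 0.051 (adjusted p = 0.011). *BOP1*, of the PeBoW complex, was at 103, 109 and 100.2 CPM attached and at 116, 124 and 115 CPM suspended, which gave 0.19 ± 0.043 (adjusted p = 0.010). Of its partners in that complex, *WDR12* also rose (0.19 ± 0.053, adjusted p = 0.023), while *PES1* was at 0.094 ± 0.038 (adjusted p = 0.10) with overlapping groups. The call of *WDR12* held in 12 of 17 fits, with an adjusted p of up to 0.27 in the rest.

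*DDX18*, a helicase of pre-60S particles, had 77.8, 73.4 and 71.4 CPM against 81.4, 82.6 and 82.8 CPM, with suspended libraries much closer to each other than attached ones (0.15 ± 0.037, adjusted p = 0.014). *WDR74*, which acts with a remodelling ATPase on pre-60S particles, had 46.2, 47.9 and 49.0 CPM against 53.2, 53.9 and 51.9 CPM (0.15 ± 0.037, adjusted p = 0.014). *RRP1B* was at 86.8, 86.2 and 85.7 CPM attached and at 94.1, 94.1 and 91.5 CPM in suspension, a rise of only 0.11 ± 0.030 on a tight background (adjusted p = 0.021). With counts rebuilt from TPM, *WDR74* was at 0.098 (adjusted p = 0.33) and *DDX18* at 0.10 (adjusted p = 0.21), neither called, and *BOP1* was at 0.18 (adjusted p = 0.055). *NOP16*, *NIP7*, *RRS1* and *PPAN* made up the rest of the risen factors, between 0.13 and 0.20. Of these *PPAN* was called in 9 of 17 fits and the others in 12 each. *NOP2*, which methylates 28S rRNA, was the only large subunit factor below 0, at -0.087 ± 0.10. Its libraries were widely spread, with 55.7, 59.3 and 65.3 CPM attached and 51.3, 64.4 and 53.8 CPM suspended.

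Of the 6 RNA polymerase I members 2 rose, both of them subunits of the enzyme. *POLR1C*, which RNA polymerase III also uses (chromosome 6, 43509702 to 43562419, plus strand), had 23.4, 22.3 and 22.6 CPM attached and 26.3, 27.2 and 26.2 CPM in suspension (0.22 ± 0.042, adjusted p = 0.0036). *POLR1B*, a large catalytic subunit of the enzyme (chromosome 2, 112541915 to 112579818, plus strand), had 58.3, 54.7 and 53.4 CPM against 62.8, 63.9 and 63.1 CPM (0.19 ± 0.039, adjusted p = 0.0059). With counts rebuilt from TPM the changes were of like size, 0.22 for *POLR1C* and 0.21 for *POLR1B*, but neither was called (adjusted p = 0.060 and 0.19), which left 0 calls in this group. For *POLR1A* the suspended libraries were at 99.7, 102 and 88.8 CPM and the attached ones at 85.3, 91.6 and 89.2 CPM. These overlapped, and the change of 0.13 ± 0.059 did not pass (adjusted p = 0.15), but it was called without suspended vehicle replicate 3 (0.19, adjusted p = 0.041), with library totals (0.18, adjusted p = 0.043) and with no filter on low counts (0.13, adjusted p = 0.016). *POLR1E*, another subunit of the enzyme, was at 0.080 ± 0.048 with overlapping groups (adjusted p = 0.26).

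The other 2 members of this group help to recruit the enzyme, and neither was called. *RRN3*, which couples RNA polymerase I to growth signals at initiation, had 89.9, 89.1 and 81.5 CPM attached and 82.5, 90.2 and 86.7 CPM suspended, with a change of -0.0052 ± 0.046 (adjusted p = 0.95). *TAF1D* was at 96.0, 92.1 and 100 CPM attached and at 81.9, 87.1 and 87.9 CPM suspended. It was the single member in which every suspended library lay below every attached one, but the change of -0.17 ± 0.068 was not called (adjusted p = 0.10). It was called lower in DESeq2, with no filter on low counts, and in a fit of the 6 libraries alone.

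None of the 7 members of the snoRNA particles was called, where 10.4% of all genes tested were called higher and 10.8% lower. None had an unadjusted p under 0.05, against 5290 of all 15528 genes tested. With only 7 genes, a count of 0 says little by itself. The group median was 0.023, and the changes ran from -0.060 (*GAR1*) to 0.096 (*NHP2*). *NHP2*, of the H/ACA particles, had 69.8, 70.4 and 72.7 CPM attached and 77.1, 78.2 and 72.4 CPM suspended, a change of 0.096 ± 0.052 (adjusted p = 0.22). *FBL*, or fibrillarin, the methyltransferase of the C/D particles, was at 120.0, 136 and 120.1 CPM against 137, 131 and 130.3 CPM. Attached replicate 2 was the high one, and the change of 0.082 ± 0.047 (adjusted p = 0.24) became 0.14 without that library and was then called (adjusted p = 0.031). For the abundant *DKC1*, *NOP56* and *NOLC1* the changes were 0.023, 0.025 and 0.017, with standard errors of 0.036 to 0.037, so rises as large as those of *BRIX1* or *POLR1C* lay outside their intervals.

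Of the general nucleolar proteins, the helicase *DDX21* rose (chromosome 10, 68956135 to 68985068, plus strand). It had 249, 248 and 239 CPM attached and 276, 270.4 and 261 CPM suspended, a change of 0.13 ± 0.031 (adjusted p = 0.010). *NPM1* was at 845, 862 and 779 CPM attached and at 913, 857 and 836 CPM suspended (0.068 ± 0.042, adjusted p = 0.28). With counts rebuilt from TPM its change was 0.17 and was called (adjusted p = 0.031). *NCL* had 1061, 1133 and 1044 CPM attached and 1106, 992 and 955 CPM suspended, at -0.085 ± 0.052 (adjusted p = 0.27). Without suspended vehicle replicate 1, its highest suspended library, it was called lower at -0.15 (adjusted p = 0.048), as was *DDX10*.

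**Figure D3:**
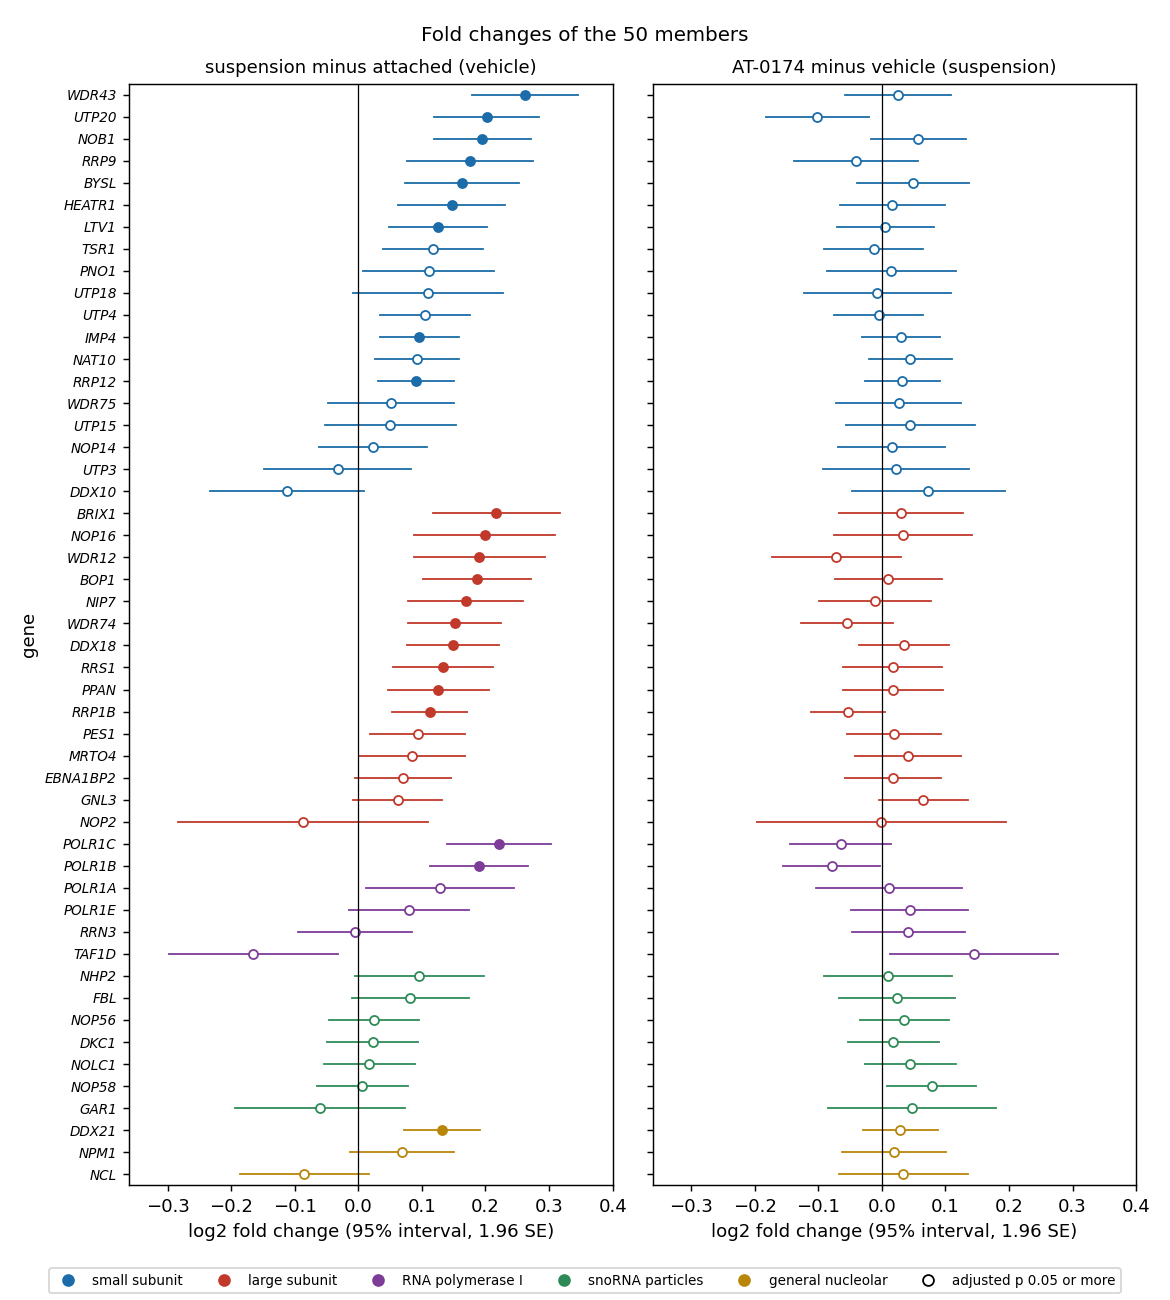
Log2 fold changes of the 50 members with approximate 95% intervals, for suspension minus attached cells with vehicle (left) and AT-0174 minus vehicle in suspension (right), coloured by group, with filled points for an adjusted p under 0.05. On the left 22 points are filled, all to the right of 0, and on the right 0 are filled.

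The groups were then set side by side within each library, as the mean log2 CPM of a group's members relative to attached cells. Small subunit factors were at 0.13, 0.11 and 0.070 in the 3 suspended vehicle libraries, and large subunit factors at 0.14, 0.14 and 0.092, against -0.037 to 0.036 for both in attached libraries. RNA polymerase I factors were at 0.053, 0.12 and 0.046, above their attached range of -0.024 to 0.018. The snoRNA particle factors, at 0.078, 0.0065 and -0.0037, overlapped their attached range of -0.038 to 0.046. The difference between the large subunit and the snoRNA particle factors was 0.057 to 0.14 in suspended vehicle libraries and -0.013 to 0.012 in attached ones. For the small subunit it was 0.047 to 0.11 against -0.0095 to 0.0070, whereas that for RNA polymerase I, -0.025 to 0.12, overlapped the attached range of -0.040 to 0.026. The large and the small subunit factors differed by 0.031 or less in every library. These are descriptions over genes that were measured in the same libraries, and no test compared the groups.

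**Figure D4:**
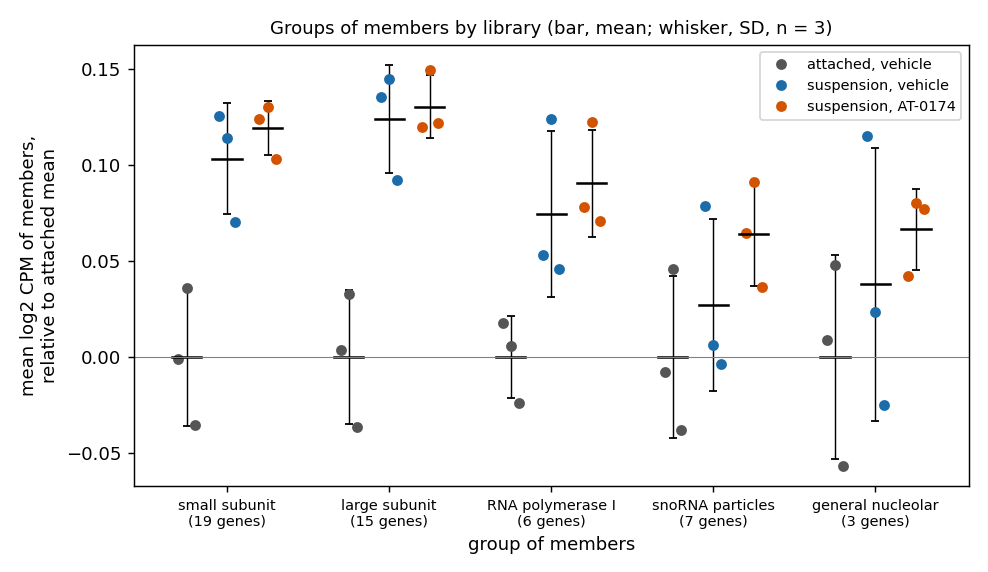
Mean log2 CPM of each group's members in each library relative to the mean of the attached libraries (vertical axis), with 1 point per library, bars for the mean and whiskers for the SD of 3 libraries. Suspended libraries of both drug conditions lie above all attached ones for the small and large subunit and RNA polymerase I groups, and overlap them for the other two groups.

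Genes of the same pathway outside the 50 gave smaller shares of calls. Of 119 further ribosome biogenesis genes 23 rose (19.3%) and 5 fell, with a median of 0.058, against 10.4% higher over all genes tested and 18.0% over those at least as high as the lowest member. By group, 8 of 39 other small subunit factors rose and 1 fell, 10 of 44 other large subunit factors rose and 2 fell, and 2 of 10 other RNA polymerase I factors rose and 1 fell. Among other genes of snoRNA particles 3 of 11 rose (27.3%), *SNU13* (0.17 ± 0.035), *NOP10* (0.14 ± 0.047) and *RUVBL1* (0.11 ± 0.032). Of the 7 snoRNA particle members 0 were called, and with so few genes the shares were not compared. Of 15 genes of the exosome and rRNA trimming 0 rose and 1 fell, the nuclease *EXOSC10* (-0.14 ± 0.031, adjusted p = 0.0093). The median of that list was nevertheless 0.079, with 11 of 15 above 0 and 7 of 15 higher in every suspended library than in every attached one. The highest of the large subunit list among called genes were *TEX10* (0.33 ± 0.066), *URB2* (0.30 ± 0.042) and *RSL24D1* (0.30 ± 0.042), and *MDN1* was at 0.31 ± 0.11 without passing (adjusted p = 0.055). In the SL1 factor, to which *TAF1D* also belongs, *TAF1C* fell (-0.40 ± 0.082, adjusted p = 0.0053) and *TAF1B* rose (0.20 ± 0.058, adjusted p = 0.032). The epithelial and luminal markers, which bear on the make-up of the culture, had 3 of 8 higher, with a median of 0.065, and of the markers of other cell types *COL1A1* fell (-0.28 ± 0.046). The part of either in the members' values was not tested.

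With AT-0174, 0 of the 50 members were called in suspension (edgeR, adjusted p under 0.05), where 0.779% of all genes tested were called. DESeq2 and limma-voom also called 0 members. At an unadjusted p under 0.05 there were 2 members, against 9.02% of all genes, and 6 members had groups that did not overlap, against 15.4% of all genes. The median change was 0.020 over the members, between 0.017 and 0.036 by group, and the single changes ran from -0.10 to 0.14. This comparison shares the suspended vehicle libraries with the comparison above, so an unusual vehicle library would move both in opposite directions.

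The members nearest to a change were spread over the groups. *UTP20* was at 47.9, 45.8 and 45.1 CPM with AT-0174 against 51.1, 50.3 and 47.4 CPM with vehicle, and both remained above the attached libraries. The change was -0.10 ± 0.042 (unadjusted p = 0.031, adjusted p = 0.47). *NOP58*, a core protein of the C/D particles, had 89.4, 91.3 and 88.5 CPM with AT-0174 and 88.7, 84.7 and 81.7 CPM with vehicle (0.078 ± 0.036, unadjusted p = 0.049, adjusted p = 0.55). *TAF1D* had 84.7, 107 and 93.0 CPM with AT-0174, where replicate 2 was above every other library of the series, and the change of 0.14 ± 0.067 did not pass (adjusted p = 0.56). With no filter on low counts it was the only member called with the drug, at 0.15 (adjusted p = 0.028).

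*GNL3* came closest among large subunit factors at 149, 156 and 149 CPM against 149.7, 144 and 141 CPM (0.065 ± 0.036, unadjusted p = 0.092). Both RNA polymerase I subunits that rose in suspension had lower values with the drug in every library, though neither passed. *POLR1B* was at 60.6, 58.7 and 60.3 CPM (-0.079 ± 0.039, adjusted p = 0.59) and *POLR1C* at 25.1, 25.6 and 25.4 CPM (-0.065 ± 0.041, adjusted p = 0.70), still above all attached libraries. The large subunit factors *WDR74* (-0.054 ± 0.037) and *RRP1B* (-0.053 ± 0.030) also lay below every vehicle library, neither called. These were the 4 members lower without overlap, against 1189 of 15528 genes tested. Each had been called higher in suspension with those same vehicle libraries. *DDX21* was at 274, 274 and 275 CPM (0.029 ± 0.030), a narrower range than that of the vehicle libraries. The changes of *NCL* (0.034 ± 0.051), *NPM1* (0.019 ± 0.042), *FBL* (0.024 ± 0.046), *POLR1A* (0.011 ± 0.059) and *RRN3* (0.042 ± 0.045) were each smaller than their standard error. The approximate 95% intervals of the members together spanned -0.20 to 0.28, and for the noisier genes they covered changes as large as those seen in suspension. None of the 119 further ribosome biogenesis genes was called with AT-0174.

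The promoters of these genes shared sequence features. The rule for the members used gene symbols and not promoter sequence. Knowledge of MYC targets may still have entered the list, so the shares below are descriptions. RefSeq promoters (GRCh38.p14, from 250 bases before to 50 bases after the start of transcription) were at hand for 42 of the 50 members. The 8 without were *BOP1*, *DDX18*, *NOLC1*, *NOP58*, *POLR1E*, *RRP12*, *RRP1B* and *RRS1*. Some genes had several promoters, and a motif in any of them was counted, in members and background alike. The E-box CACGTG, which reads the same on both strands, was present in 19 of the 42 (45.2%), against 1727 of 15842 protein-coding genes with a promoter (10.9%). By group it was in 11 of 18 small subunit, 5 of 11 large subunit, 2 of 5 snoRNA particle, 1 of 3 general nucleolar and 0 of 5 RNA polymerase I genes. The position was also narrow. All 19 members had an E-box within 50 bases of a start, whereas 697 protein-coding genes did, or 40.4% of those with an E-box anywhere in a promoter. The windows around the E-box are shown for the 7 of these genes that rose in suspension, on the strand of the gene and with the E-box in capitals.
WDR43 (chr2:28894658-28894687, plus strand): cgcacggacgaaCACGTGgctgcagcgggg
UTP20 (chr12:101280083-101280112, plus strand): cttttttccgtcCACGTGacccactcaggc
RRP9 (chr3:51941892-51941921, minus strand): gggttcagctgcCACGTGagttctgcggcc
BYSL (chr6:41921515-41921544, plus strand): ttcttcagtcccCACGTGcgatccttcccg
LTV1 (chr6:143843354-143843383, plus strand): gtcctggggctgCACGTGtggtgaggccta
IMP4 (chr2:130342900-130342929, plus strand): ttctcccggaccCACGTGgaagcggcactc
DDX21 (chr10:68956604-68956633, plus strand): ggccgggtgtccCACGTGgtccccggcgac

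The first base of the E-box lay 4 bases after the start in *WDR43*, 10 bases before it in *UTP20* and 5 bases before it in *RRP9*. In *BYSL* and *LTV1* it lay 29 bases after the start, in *IMP4* 16 bases after it and in *DDX21* 31 bases before it. For *DDX21* that start belongs to a downstream promoter (68956397 to 68956696), inside the span of the gene. The upstream promoter of *DDX21* (68955920 to 68956219) held no E-box. Only 17 of the 22 risen members had a promoter at hand. Among members with a promoter the E-box did not set the risen ones apart, being in 7 of 17 (41.2%) and in 12 of the 25 others (48.0%). For the risen large subunit genes *BOP1*, *DDX18*, *RRP1B* and *RRS1* the E-box could not be looked up. All 5 large subunit genes found with an E-box (*EBNA1BP2*, *GNL3*, *MRTO4*, *NOP2* and *PES1*) were among those not called. Their windows are given for comparison for 3 of them, since those of *NOP2* and *EBNA1BP2* near the start run into the edge of the promoter.
GNL3 (chr3:52686026-52686055, plus strand): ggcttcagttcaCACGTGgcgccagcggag
MRTO4 (chr1:19251807-19251836, plus strand): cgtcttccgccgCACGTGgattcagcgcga
PES1 (chr22:30591880-30591909, minus strand): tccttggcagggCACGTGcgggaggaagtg

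A second motif, CCGGAAG on either strand, which ETS family factors bind and which shares no whole match with the E-box, was also in 19 of 42 members (45.2%), against 2618 of 15842 protein-coding genes (16.5%). It was in 4 of 5 RNA polymerase I genes, *POLR1B*, *POLR1C*, *RRN3* and *TAF1D*, in 6 of 11 large subunit genes and in 6 of 18 small subunit genes. Of the risen members 10 of 17 (58.8%) held it, and of the others 9 of 25 (36.0%). Both motifs were found for 8 members, not always in the same promoter of a gene. A match gives the letters in this window and not the binding of a factor. For both motifs the background was all protein-coding genes with a promoter, and it was not matched for level.

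**Figure D5:**
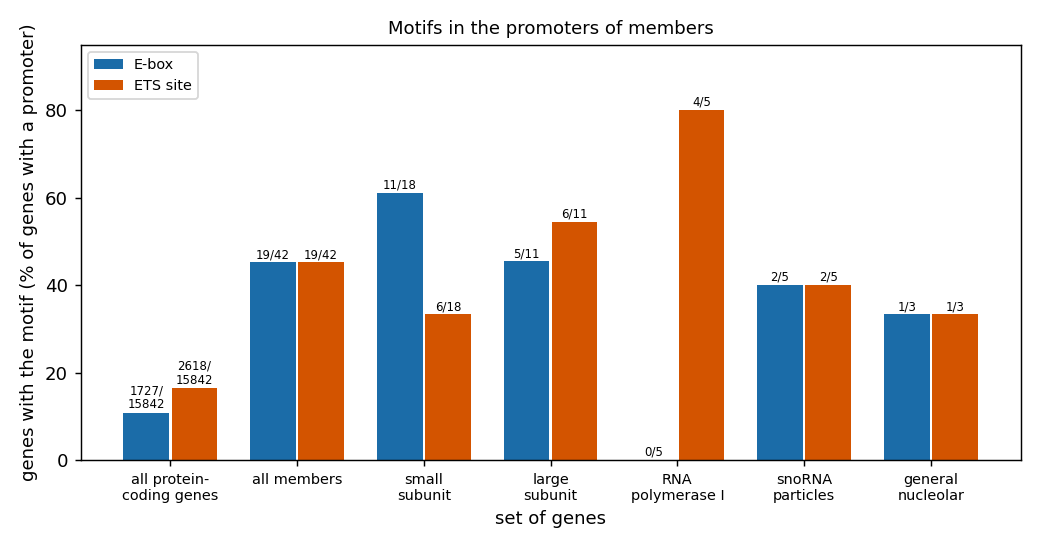
Share of genes (vertical axis, percent of genes with a RefSeq promoter) whose promoter holds the E-box (blue) or the ETS site (orange), for all protein-coding genes, all members and each group, with the counts above the bars. The E-box is highest in the small subunit group (11 of 18) and is in 0 of 5 RNA polymerase I genes, where the ETS site is in 4 of 5.

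Some of these genes also hold snoRNA genes between their first and last base, and whether these lie in introns was not examined. By GENCODE release 44, 10 of the 50 members (20.0%) held at least 1 snoRNA gene on the same strand, against 1.37% of 20046 protein-coding genes. That background took in all annotated protein-coding genes and was not matched for level. *TAF1D* held 8, among them *SNORA25* and *SNORD6*, *GNL3* held 6, *NOP56* held 5 and *NOP58* held 4. *NCL* and *WDR43* held 3 each, *DKC1*, *PPAN* and *TSR1* held 2 each, and *POLR1C* held 1. Of these 10 genes 3 rose in suspension (*WDR43*, *PPAN* and *POLR1C*), against 22 of all 50 members and 10.4% of all genes tested. The median change of the 10 was 0.043, against 0.10 over all members. The levels of the snoRNAs themselves were not analysed here.

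The transcript estimates added a layer within the genes. Transcripts annotated as retained introns took 13.0% to 16.0% of the members' summed TPM by library, against 6.64% to 7.82% for all protein-coding genes. Being a share of summed TPM, this is weighted by level. The abundant *DKC1* and *NPM1* had mean shares of 53.1% and 19.9% in attached cells and weigh heavily in it. The highest mean share of any member was that of *WDR12*, at 89.4% in both attached and suspended vehicle cells. Of the members 16 had a share of at least 10% in attached cells. The share over all protein-coding genes was itself lower in suspension, at 7.26, 7.31 and 7.82% in attached and 7.06, 6.94 and 6.94% in suspended vehicle libraries. Of the 38 members with such transcripts, the mean share was lower in suspension in 30 (78.9%), against 67.6% of 7124 protein-coding genes tested that had them. The groups did not overlap in 4 of the 38, where they did not overlap in 22.0% of those genes. The values of these 4 are given as a description. In *NOP2* the share was 23.8, 25.1 and 28.3% in attached libraries and 16.8, 15.8 and 20.5% in suspended vehicle libraries. *GNL3* had 16.8, 14.4 and 15.8% against 8.08, 10.1 and 9.02%, and *TAF1D* had 42.0, 49.3 and 45.0% against 37.2, 41.7 and 41.7%. In *WDR43* it was higher, with 11.5, 11.5 and 8.61% attached and 13.7, 11.8 and 16.1% suspended. With AT-0174 the mean share was lower in 18 members and higher in 20, and lower in 44.6% of the protein-coding genes. These shares were split by Salmon between transcripts that overlap almost entirely, were not tested, and enter the counts rebuilt from TPM through transcript length.

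Some counts could hold reads of other genes. The readthrough gene *PPAN-P2RY11* had 11% as many counts as *PPAN*, the pseudogene *RRN3P3* had 5.79% of those of *RRN3*, and *NPM1P27* 0.743% of those of *NPM1*. Adding all such pseudogene and readthrough counts left the number of members called in suspension at 22. Exons of 22 members overlapped those of another coding gene or long noncoding RNA, 18 of them on the opposite strand, among these *POLR1C* (*YIPF3*, *XPO5* and *LRRC73*), *NOB1*, *WDR12* and *TAF1D*. Whether strand was used in counting is not given in the sources used here, so reads from both strands cannot be told apart there. Of the 28 members without such an overlap 11 rose, including *WDR43*, *UTP20*, *BRIX1*, *BOP1* and *DDX21*, and of the 22 with one 11 rose.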

How the data were processed

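RNA-seq was analysed for 9 libraries of MDA-MB-453 cells. Per the study's methods and processing notes, reads were trimmed with Trim Galore 0.6.7 and cutadapt 3.4, aligned with STAR 2.7.9a to GRCh38 and quantified with Salmon 1.10.1. The sample descriptions and the methods name different library kits, which cannot be settled from the values. The authors deposited estimated counts per gene, without normalization, and TPM per transcript, which Salmon scales by effective length to a fixed sum. TPM was summed by gene here.

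Estimated counts were rounded and tested with edgeR 4.0.16 in R 4.3.3 (filterByExpr by condition, TMM, quasi-likelihood). All 9 libraries entered a single fit with condition as the only term, and 2 contrasts were taken. Calls were made at an adjusted p (Benjamini-Hochberg, over all 15528 genes tested) under 0.05. Standard errors were obtained by dividing the absolute log2 change by the root of the F statistic. The edgeR test was checked on simulated counts with known changes, and no such check was made of DESeq2 or limma-voom. Alternatives were DESeq2 1.42.0, its size factors, limma-voom (limma 3.58.1), library totals, no filter or a minimum of 10 counts in every library, the 6 libraries of a contrast alone, a replicate block, counts rebuilt from TPM, added pseudogene and readthrough counts, an adjusted p threshold of 0.01, and each library left out.

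The members and lists were chosen with earlier results of these data known. Named genes were, per contrast and group, up to 5 called members in each direction with the smallest p, or the member with the smallest p where none was called, and *NCL*, *NPM1*, *FBL*, *POLR1A* and *RRN3*. Further genes were named after their values were seen. Promoters were RefSeq's. No library was excluded. Same-numbered libraries did not deviate together across conditions (correlations of -0.065 to 0.053), so numbers were not taken to pair them.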

Additional observations from a re-analysis of the deposited data

How the results depend on the processing

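Of the alternatives to the edgeR fit, several moved the number of members called in suspension by more than 1.5 times from 22: counts rebuilt from TPM gave 6, an adjusted p threshold of 0.01 gave 5, and 3 of the 6 fits that left out 1 library gave 9 to 13. Over all 6 of these the count was 9 to 18. DESeq2, DESeq2 size factors and limma-voom gave 20 each, and the replicate block gave 19 and no new call, with 0 members called for AT-0174. For AT-0174 the count was 0 in every alternative except with no filter on low counts, where it was 1. The median change in suspension moved beyond the SD between replicates with library totals, from 0.11 to 0.16 for the small subunit and from 0.13 to 0.18 for the large subunit, and from 0.10 to 0.15 for RNA polymerase I, and with counts rebuilt from TPM to 0.10 for the large subunit. The RNA polymerase I median in suspension was 0.066 to 0.15 over fits that left out 1 library, the low end without suspended vehicle replicate 2 and the high end without replicate 3. With AT-0174 it went from 0.026 to -0.035 from TPM and was -0.022 to 0.059 leaving out 1 library, where that of the small subunit was -0.014 to 0.029 (0.022 with all), both lowest without suspended vehicle replicate 3. Signs turned only in genes that were not called. *RRN3* in suspension went from -0.0052 to 0.042 with library totals, 0.0002 with no filter, 0.011 from TPM, and was -0.049 to 0.031 leaving out 1 library. With AT-0174, *POLR1A* went from 0.011 to -0.010 with library totals, -0.11 from TPM, and -0.052 to 0.048 leaving out 1 library. *NPM1* went from 0.019 to -0.0022 with library totals, -0.036 from TPM and -0.011 to 0.052 leaving out 1 library, and *NCL* from 0.034 to between -0.013 and 0.093. The cause of these moves was not tested. At this depth and with 3 libraries a group, changes under about 0.09 on the log2 scale were not called for any member.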
